A study of Mus musculus with 24 samples.

Results

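The 49 genes described here carry out the cell cycle and DNA replication. They were chosen by name as a module, with earlier results of these data known. The data list 24825 genes with FPKM values (fragments per kilobase of gene and 1000000 mapped reads). Of the 49, 28 act in mitosis and 21 in DNA replication. All 49 were found and passed the filter for testing, which 12640 genes met, of 1 FPKM or more in 3 or more libraries. The libraries are RNA-seq of cells made from the stromal vascular fraction of inguinal white fat of Nfia flox/flox mice, in which adipocyte precursors were immortalised with SV40 large T antigen, a viral protein known to bind and inactivate the retinoblastoma proteins and p53. All cells of all groups carry this antigen, so no group stands for an unmodified cell cycle.

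There were 4 cell types. The ctrl cells were infected with an empty retroviral vector and the Cre cells with a retroviral vector expressing Cre recombinase, directed at the floxed Nfia gene, which encodes a transcription factor. Cells of the Cre + NFIA and Cre + NFIA Δpro#3 types also carried a retrovirus for 3xFLAG-tagged full-length NFIA, or for NFIA without its last proline-rich segment. The latter cells are called Δpro#3 from here on. No Cre cells with an empty vector in place of the transgene are described, so a transgene and the further retroviral infection cannot be told apart. Each cell type was sequenced at day 0, before differentiation, and at day 7. Differentiation was induced at confluence for 48 hours with IBMX, indomethacin, dexamethasone, insulin, T3 and rosiglitazone, followed by insulin, T3 and rosiglitazone. Each of the 8 groups had 3 libraries, 24 in all, and nothing in the labels states whether the 3 came from separate cultures, so that p-values measure the spread between these libraries, which may be technical. The comparisons ask which of the genes differ between the days in each cell type, and whether Nfia deletion and the return of either NFIA changed them.

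As background, progress through the cell cycle is driven by cyclins and cyclin-dependent kinases. Cyclin D and cyclin E kinases phosphorylate the retinoblastoma family, which releases E2F transcription factors to induce the replication genes. Mitotic genes are expressed later, through the MuvB complex with Mybl2 and FoxM1, and are repressed by the DREAM complex in resting cells. Differentiating adipocyte precursors are known to leave the cell cycle as they mature, in culture often after a few rounds of division that follow the hormone cocktail. The mitotic genes are Ccna2, Ccnb1, Ccnb2, Cdk1, Cdc25c and Cdca3 (cyclins, CDK1 and its activators), Aurka, Aurkb, Plk1, Bub1 and Bub1b (kinases and the spindle checkpoint), and Cdc20, Ube2c, Birc5 and Cdca8 (mitotic exit and chromosomal passengers). They also include Kif11, Kif20a, Kif23, Kif2c, Nusap1 and Tpx2 (the spindle), Cenpa, Cenpe, Cenpf, Top2a and Mki67 (centromere and chromosome structure), and Foxm1 and Mybl2 (transcription). The replication genes are Ccne1, Ccne2, E2f1 and E2f2 (entry into S phase), Mcm2 to Mcm7, Cdc6, Cdt1, Gmnn and Pcna (licensing and fork), Rrm1, Rrm2, Tyms and Tk1 (nucleotide synthesis), and Chek1, Brca1 and Ezh2 (checkpoint, repair and chromatin). A bulk library cannot tell a smaller share of dividing cells from less of an RNA per dividing cell.

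The libraries held 7.73 to 14.6 M reads in genes (M, 1000000), with the Cre day 0 libraries the shallowest at 7.73 to 10.2 M. Every one of the 49 genes had more than 3 reads in every library, the lowest count being 37, and 48 of them stood at 1 FPKM or more in all 24 libraries. Mean Nfia was 6.47 FPKM in ctrl and 6.21 in Cre at day 0, and 9.55 and 10.1 at day 7, so that gene-level Nfia was not lower in the libraries labelled Cre (log2 difference -0.06 at day 0 and 0.07 at day 7, limma adjusted p = 0.687 and 0.426). As only exon 2 of Nfia is floxed and these values count reads over the whole gene, they do not check the deletion. The study reports efficient recombination by PCR of genomic DNA. It also reports a nearly complete loss of NFIA mRNA and protein in Cre-expressing cells. In the groups with a transgene mean Nfia was 60.7 to 102 FPKM, transgene reads included. The 10 adipocyte markers summed to 76.6 to 122 FPKM at day 0, and at day 7 all 10 stood at 1 FPKM or more in every library. Of the 8 adipose precursor markers, which summed to 2018 to 2335 FPKM at day 0, 5 or 6 stood at 1 FPKM or more in every library of a day 0 group, and Dpp4 had at most 4 reads there. The defining markers Ptprc, Adgre1 and Itgam of macrophages, Cdh5 of endothelium and Myod1 and Myog of skeletal muscle had at most 3 reads in every library. Other markers of these lists were above that, with Cd68 of macrophages at 3.53 to 8.23 FPKM, Tek of endothelium at up to 7.34 and Des of muscle at up to 1.71. The 6 macrophage markers summed to 4.48 to 13.6 FPKM, the 4 endothelial to 1.55 to 10.2 and the 5 skeletal muscle markers to at most 1.71, and the part of any in the results was not tested.

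5 promoter windows are shown because the 2 classes are known to be controlled through different promoter elements. They belong to the 2 genes of each class with the highest mean FPKM that a table of RefSeq promoters lists (GRCm38.p6, 250 bases before to 50 after the transcription start, the sense strand of the gene), and to E2f2, which was added after its values were seen because it moved most. Capitals mark matches on either strand, those on the other strand reading as the reverse complement, to TTTGAA, the CHR element of mitotic promoters, to CCAAT, the core of the NF-Y element, and to 3 cores of E2F elements, which read TTCCCGC in one form, TTGGCGC in another and TTCGCGC in the last. The windows are, in order, Ube2c (chr2:164769679-164769978, plus strand), Cdk1 (chr10:69352863-69353162, minus strand), Pcna (chr2:132253131-132253430, minus strand), the first of 2 listed for Mcm7 (chr5:138171834-138172133, minus strand) and the first of 2 listed for E2f2 (chr4:136172024-136172323, plus strand).
Ube2c: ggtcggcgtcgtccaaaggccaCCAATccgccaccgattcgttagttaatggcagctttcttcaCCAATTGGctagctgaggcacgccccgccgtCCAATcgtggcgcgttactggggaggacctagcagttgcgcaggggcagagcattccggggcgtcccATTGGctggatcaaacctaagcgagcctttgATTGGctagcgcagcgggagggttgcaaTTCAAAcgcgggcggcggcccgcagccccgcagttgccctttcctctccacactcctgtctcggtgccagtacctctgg
Cdk1: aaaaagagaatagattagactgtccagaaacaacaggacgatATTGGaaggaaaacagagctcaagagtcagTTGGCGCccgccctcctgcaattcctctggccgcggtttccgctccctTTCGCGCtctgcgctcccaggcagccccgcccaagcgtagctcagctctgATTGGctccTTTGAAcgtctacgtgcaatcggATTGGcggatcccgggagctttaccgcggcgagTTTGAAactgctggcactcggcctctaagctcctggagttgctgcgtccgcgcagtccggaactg
Pcna: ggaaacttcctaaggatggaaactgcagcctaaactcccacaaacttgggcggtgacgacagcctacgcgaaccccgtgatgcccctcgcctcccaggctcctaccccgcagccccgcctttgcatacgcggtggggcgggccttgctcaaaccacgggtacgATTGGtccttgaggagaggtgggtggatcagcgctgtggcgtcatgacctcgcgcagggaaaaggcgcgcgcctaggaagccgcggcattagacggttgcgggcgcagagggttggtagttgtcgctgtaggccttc
Mcm7: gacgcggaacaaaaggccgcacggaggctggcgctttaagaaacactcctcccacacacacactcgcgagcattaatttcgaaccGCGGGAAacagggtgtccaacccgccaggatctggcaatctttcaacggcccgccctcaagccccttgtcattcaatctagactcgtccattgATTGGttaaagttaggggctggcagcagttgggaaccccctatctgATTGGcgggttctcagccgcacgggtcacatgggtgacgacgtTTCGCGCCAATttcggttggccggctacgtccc
E2f2: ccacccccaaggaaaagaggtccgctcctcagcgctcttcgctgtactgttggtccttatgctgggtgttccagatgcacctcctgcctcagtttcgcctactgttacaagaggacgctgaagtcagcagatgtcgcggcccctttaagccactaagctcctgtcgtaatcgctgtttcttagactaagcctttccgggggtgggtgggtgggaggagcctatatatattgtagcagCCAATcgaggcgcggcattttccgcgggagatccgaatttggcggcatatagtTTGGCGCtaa

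In these windows Ube2c holds 1 TTTGAA, which starts 29 bases before the transcription start, and 6 CCAAT, of which 2 overlap. Cdk1 holds 2 TTTGAA and 3 CCAAT beside 2 E2F cores. Pcna, Mcm7 and the E2f2 window shown hold no TTTGAA, while the second E2f2 window of the table holds it. The table lists 42 promoters for 40 of the 49 genes, and the others are Aurkb, Gmnn, Tpx2, Mcm4, Ccna2, Ccne2, Cdc25c, Kif20a and Foxm1. Of the 22 mitotic promoters, 16 hold TTTGAA (72.7%) and 18 hold CCAAT (81.8%). Of the 20 replication promoters, which belong to 18 genes, 2 hold TTTGAA (10.0%), 13 hold CCAAT (65.0%) and 12 hold at least 1 of the E2F cores (60.0%), which 3 mitotic promoters do (13.6%). Of all 32851 promoters of this length in the table, 17.9% hold TTTGAA, 37.4% CCAAT and 8.07% at least 1 of the E2F cores. CCAAT and TTGGCGC can share bases, as can neighbouring CCAAT motifs. These matches describe letters in a window, not sites that a factor binds.

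The 49 genes were expressed in every group, and most varied little. The ratio of the highest to the lowest of the 8 group means had a median of 1.48 and was under 2 for 41 genes, while the SD of 3 libraries was, at the median, 4.81% of the mean. The ratio reached 17.2 for E2f2, 3.27 for Ccne2, 2.82 for Rrm2, 2.57 for Cdca3, 2.24 for Ccne1, 2.11 for Aurka, 2.04 for Ube2c and 2.03 for Mybl2, and was 1.1 for Rrm1, the least variable and, like the 8 above it, named here for its place in this order. The ctrl cells at day 0 had the lowest mean for 21 of the 28 mitotic and 9 of the 21 replication genes, and the Cre + NFIA cells at day 0 the highest for 16 mitotic genes. Marker genes of proliferation remained at readable levels after 7 days of differentiation. Mki67, the Ki-67 antigen (chr7:142881471-142908062, minus strand, mm9), stood at 21.2 to 24.3 FPKM in ctrl at day 0 and at 31.1 to 37.2 at day 7, and rose (log2 fold change 0.57 ± 0.08, adjusted p = 2.08e-06, limma).

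**Figure D1:**
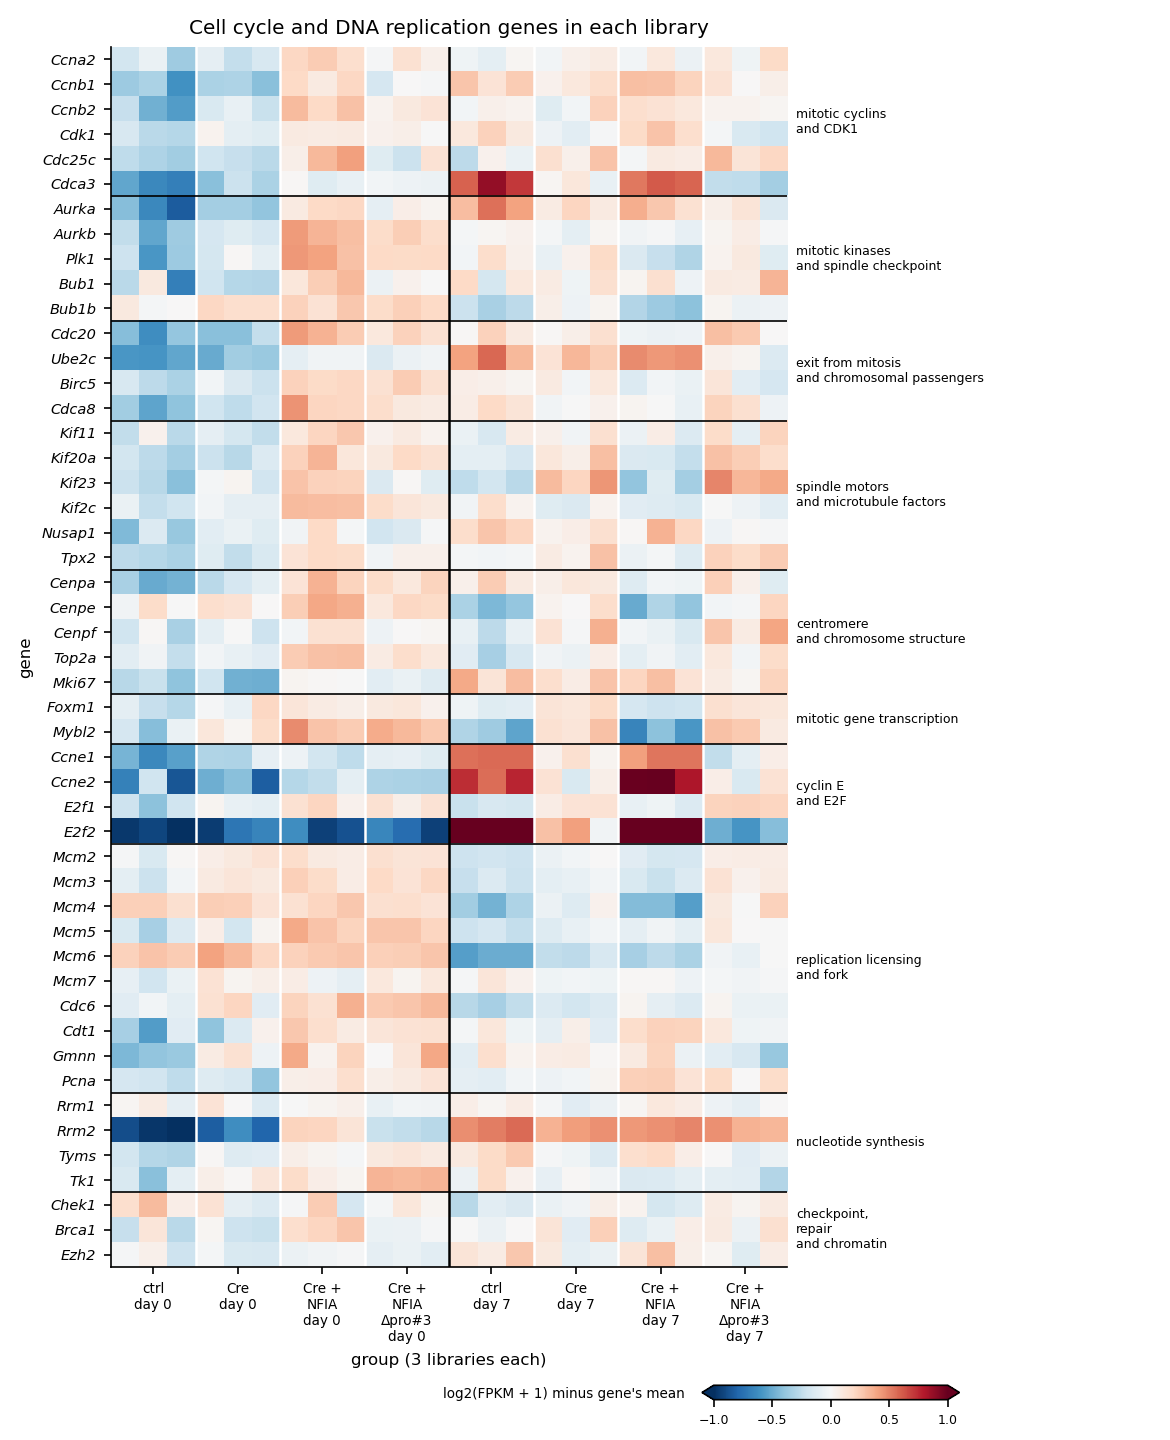
Heat map of the 49 genes (rows, by role) in the 24 libraries (columns, 3 per group, with the 4 cell types at day 0 and then at day 7). Colour gives log2(FPKM + 1) minus the mean of that gene over all libraries and stops at 1 above and below it, which E2f2 exceeds. The ctrl day 0 columns are low for most mitotic rows and the Cre + NFIA day 0 columns high.

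Before differentiation, both cell types with a transgene held more RNA of the mitotic genes than the Cre and ctrl cells. The 28 mitotic genes summed to 766 ± 31.9 FPKM in ctrl, 853 ± 3.31 in Cre, 1110 ± 9.12 in Cre + NFIA and 1020 ± 20.1 in Δpro#3 (mean ± SD, n = 3), and the 4 groups did not overlap. The 21 replication genes summed to 1049 ± 23.2, 1137 ± 32.7, 1259 ± 18.9 and 1255 ± 11.8 FPKM. Against Cre, 27 of the 49 genes rose in Cre + NFIA and 0 fell, 23 of them mitotic, where 14.7% of all genes tested rose and 12.9% fell (limma, adjusted p under 0.05 over all genes tested, as in each count that follows, on the log2(FPKM + 1) scale, which understates changes of low genes). The median log2 fold change of the 49 was 0.33, beside 0.02 for all genes tested. The count of falls was also 0 at an unadjusted p under 0.05 and 0 by limma-voom on the whole reads recovered from the FPKM values. With Δpro#3, 20 genes rose against Cre and 0 fell, also 0 and 0 by those other counts, beside 9.26% and 9.02% of all genes, and the median was 0.20. That count of 20 was 13, 12 and 13 without Δpro#3 library 1, 2 or 3, and 13 of the 20 passed also under both other scalings of the libraries, against 26 of 27 for full-length NFIA.

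Few genes passed between the Δpro#3 and Cre + NFIA cells at day 0, which does not show that the 2 cell types were alike. In Δpro#3, 0 genes were higher, with 1 at an unadjusted p under 0.05 and 1 by limma-voom, and 3 were lower, Rrm2, Kif23 and Kif2c (4.5% and 5.59% of all genes). The count of lower genes was 13 at an unadjusted p under 0.05, 11 of them mitotic, and 2 by limma-voom. Of the 3 that passed, only Rrm2 and Kif23 were lower under all 3 scalings, and 1 gene was left without Cre + NFIA library 2 or Δpro#3 library 1. Between Cre and ctrl, 3 genes were higher, Gmnn, Ccne1 and Cdca3, and 0 lower, also 0 at an unadjusted p and by limma-voom (1.63% and 1.7% of all genes). The count of higher genes was 25 at an unadjusted p under 0.05, with no share of all genes given here, and 5 by limma-voom. The median of the 49 was 0.16 beside 0.01 for all genes. Leaving out ctrl library 2 or Cre library 2 or 3 left 0 of the 3 genes that passed, and leaving out ctrl library 1 gave 5. Cre + NFIA set against ctrl, which differ in vector, Cre and transgene, had 40 genes higher and 0 lower, 0 also at an unadjusted p and by limma-voom (18.8% and 14.3%), with 27 of 28 mitotic genes among them and a median of 0.41 beside 0.02 for all genes. Beside these, the 5 smooth muscle and pericyte markers summed to 218 to 252 FPKM in ctrl, 161 to 181 in Cre, 117 to 133 in Cre + NFIA and 128 to 139 in Δpro#3, and the Cre libraries were the shallowest. The part of either in the result was not tested.

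**Figure D2:**
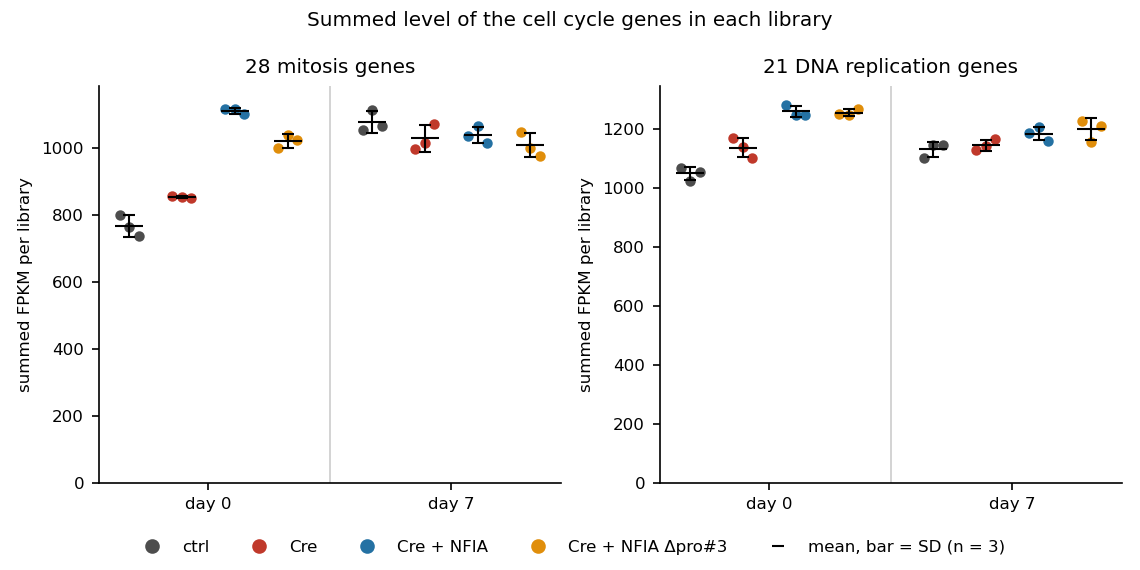
Summed FPKM of the 28 mitotic and the 21 replication genes per library, with the mean and SD of each group of 3. At day 0 the mitotic sum rises from 766 in ctrl to 1110 in Cre + NFIA with no overlap of groups, and at day 7 the 4 group means lie between 1007 and 1077.

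At day 7 the sums of the 4 cell types lay closer together. The mitotic genes summed to 1077 ± 32.6 FPKM in ctrl, 1027 ± 39.0 in Cre, 1037 ± 24.7 in Cre + NFIA and 1007 ± 36.6 in Δpro#3, and the replication genes to 1131 ± 25.3, 1145 ± 18.3, 1184 ± 22.5 and 1198 ± 37.3. In ctrl cells 28 of the 49 genes rose from day 0 to day 7 and 7 fell (32.9% and 38.1% of all genes), 18 and 2 of them mitotic, with a median of 0.23 beside -0.05 for all genes. In Cre cells 22 rose and 6 fell (30.0% and 21.6%), 16 and 1 mitotic, with a median of 0.18 beside 0.06. In Cre + NFIA cells 9 rose and 26 fell (31.8% and 38.3%), 4 and 17 mitotic, with a median of -0.22 beside -0.05. In Δpro#3 cells 6 rose and 12 fell (24.5% and 17.0%), 5 and 6 mitotic, with a median of 0.00 beside 0.05. Without Δpro#3 day 7 library 3 the last counts were 3 and 7. Normalised by median-of-ratios size factors, 14 and 22 genes passed in Cre + NFIA (35.7% and 34.1% of all genes) and 3 and 15 in Δpro#3 (20.2% and 20.6%). Quantile normalisation shifted the median of all genes in Cre by -0.10.

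The change over the 7 days was itself compared between cell types. Relative to Cre, the change in Cre + NFIA was lower for 29 genes and higher for 4 (30.1% and 18.8% of all genes), with 24 of the 28 mitotic genes lower. Of those 29 and 4 genes, 24 and 3 passed under all 3 scalings. Relative to ctrl, the change in Cre was lower for 19 and higher for 6 (19.5% and 29.7%), and with Δpro#3 relative to Cre it was lower for 13 and higher for 1 (10.4% and 7.79%). In Δpro#3 relative to Cre + NFIA it was higher for 22 genes and lower for 8 (35.0% and 24.3%). These differences include the day 0 differences as well as those of day 7. The split moved with the scaling. Under median-of-ratios factors, which shifted the median of all genes by -0.11, 0.11 and -0.11 in the 3 comparisons named next, it was 2 higher and 24 lower for Cre relative to ctrl, 8 and 24 for Cre + NFIA relative to Cre, and 11 and 13 for Δpro#3 relative to Cre + NFIA. For Cre relative to ctrl it was 6 and 11 under quantile normalisation.

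At day 7 the cell types fell into ctrl with Cre + NFIA on one side and Cre with Δpro#3 on the other for a few genes, in both directions. Against ctrl, 16 genes were higher and 9 lower in Cre (36.1% and 22.7% of all genes). Against Cre, 11 were higher and 11 lower in Cre + NFIA (27.0% and 35.9%). Against Cre + NFIA, 15 were higher and 13 lower in Δpro#3 (40.4% and 28.9%). Only 2 and 3 genes differed between Δpro#3 and Cre (7.7% and 10.0%), and 4 and 1 between Cre + NFIA and ctrl (8.81% and 9.15%). The medians of the 49 genes lay -0.08 to 0.03 on the log2 scale from those of all genes. As a share of 49, each of these 10 counts lies under the background of its comparison for the values as deposited. That did not hold for every count under the other scalings.

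The split at day 7 also depended on the scaling. Under median-of-ratios factors, which shifted the median of all genes by -0.11, 0.09 and -0.10 in the 3 comparisons, 7 genes were higher and 20 lower in Cre against ctrl, 18 and 7 in Cre + NFIA against Cre, and 11 and 19 in Δpro#3 against Cre + NFIA. In the same order, those factors gave 26.9% of all genes higher and 31.2% lower, 33.7% and 29.1%, and 33.0% and 35.0%. Under quantile normalisation the Cre + NFIA against Cre split was 8 and 17 (30.2% and 33.3% of all genes). That of Δpro#3 against Cre was 3 and 3 (10.2% and 9.72%), and that of Cre + NFIA against ctrl 2 and 1 (7.64% and 9.92%). Under all 3 scalings 7 genes were higher and 6 lower in Cre against ctrl, 6 and 7 in Cre + NFIA against Cre, and 11 and 11 in Δpro#3 against Cre + NFIA. The calls given for single genes in what follows passed under both other scalings as well, except those for Mcm3 in Δpro#3 against Cre, Cdc6 in Cre + NFIA against ctrl and Foxm1 in Cre against ctrl at day 7, Cdk1 in Cre + NFIA against Cre and Kif2c in Δpro#3 against Cre + NFIA at day 0, and Rrm2 in Cre + NFIA and Cdc25c in Δpro#3 between the days. Beside these results, the adipocyte markers summed to 22520 to 26090 FPKM in ctrl, 21500 to 21700 in Cre + NFIA, 4509 to 9653 in Cre and 864 to 2189 in Δpro#3, and took 2.72 to 3.05%, 2.68 to 2.73%, 0.619 to 1.21% and 0.147 to 0.324% of reads. The precursor markers summed to 669 to 709 FPKM in ctrl, 640 to 732 in Cre + NFIA, 1097 to 1216 in Cre and 1218 to 1444 in Δpro#3. Ly6a made up most of these sums, with means of 386, 438, 900 and 1136 FPKM in that order. Col15a1 of the same list went the other way, with means of 210, 168, 64.3 and 19.8 FPKM. Smooth muscle and pericyte markers summed to 234 to 299, 131 to 158, 288 to 351 and 383 to 470 FPKM in the same order. The part of these lists in the day 7 results was not tested.

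**Figure D3:**
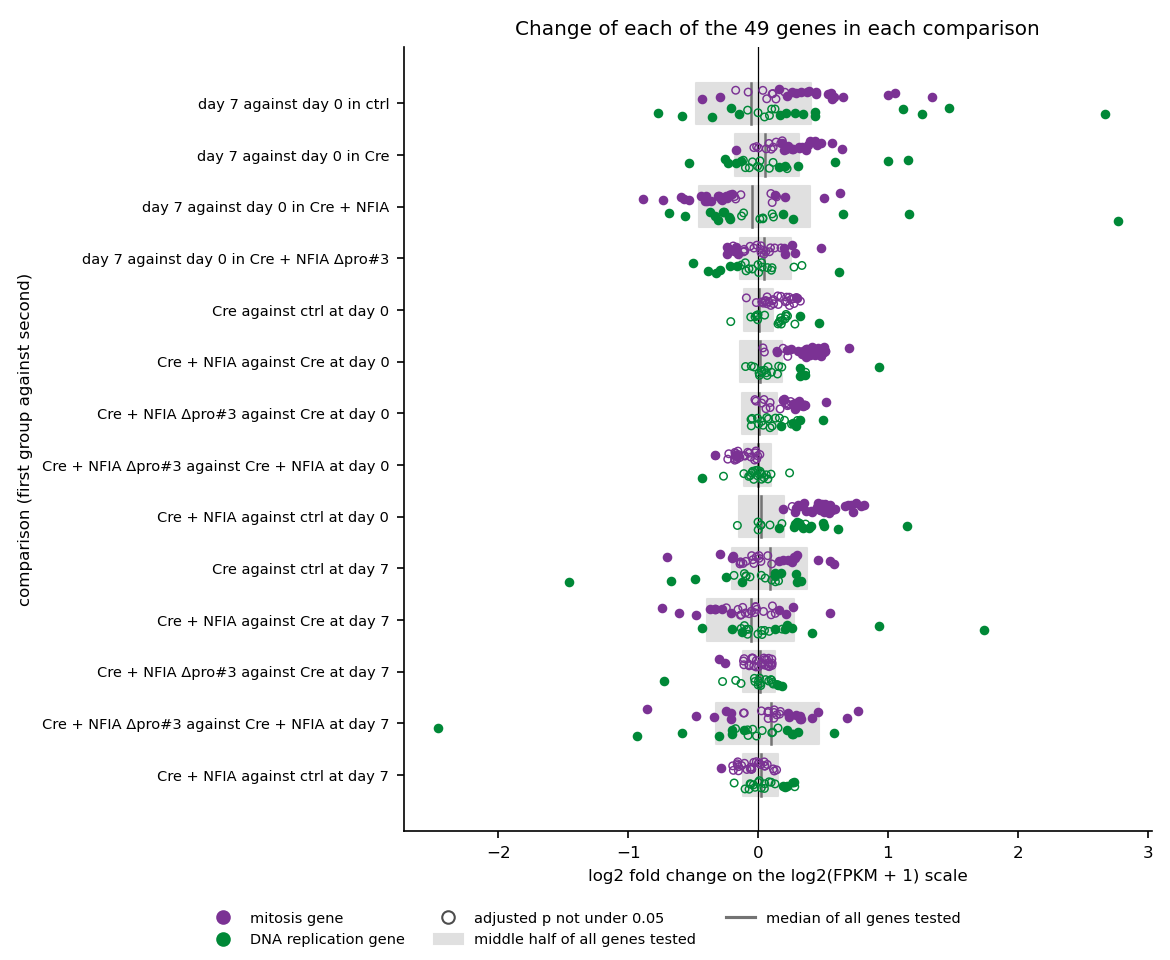
Log2 fold change, on the log2(FPKM + 1) scale, of each of the 49 genes in the 14 comparisons of 2 groups. Filled points passed limma, the grey box spans the first to the third quartile of all genes tested and the line is their median. In the day 0 rows of Cre + NFIA against Cre and against ctrl, most genes lie to the right of the line. The rows that compare cell types at day 7 spread to both sides.

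The largest change among the 49 genes belonged to E2f2, an E2F transcription factor that activates replication genes (chr4:135728309-135751972, plus strand). At day 0 it stood at 0.745, 0.802 and 0.596 FPKM in ctrl, 0.767, 1.06 and 1.15 in Cre, 1.22, 0.784 and 0.858 in Cre + NFIA and 1.17, 1.01 and 0.783 in Δpro#3. At day 7 it stood at 7.99, 11.1 and 10.95 FPKM in ctrl, 3.17, 3.52 and 2.32 in Cre, 12.01, 12.8 and 11.98 in Cre + NFIA and 1.42, 1.26 and 1.53 in Δpro#3. The day 7 libraries of ctrl and Cre + NFIA lay above every other library, those of Cre next, and those of Δpro#3 closest to day 0. E2f2 rose between the days in ctrl (log2 fold change 2.67 ± 0.13, adjusted p = 1.04e-13, limma), in Cre (1.00 ± 0.13, adjusted p = 1.38e-06, limma) and in Cre + NFIA (2.77 ± 0.13, adjusted p = 5.33e-14, limma), while in Δpro#3 the difference was 0.28 ± 0.13, adjusted p = 0.0907 (limma). At day 7 it was lower in Cre than in ctrl (log2 -1.46 ± 0.13, adjusted p = 2.84e-06, limma), higher in Cre + NFIA than in Cre (1.74 ± 0.13, adjusted p = 3.53e-07, limma) and lower in Δpro#3 than in Cre (-0.73 ± 0.13, adjusted p = 0.00291, limma). It was the only one of the 49 to pass 3-fold on this scale, in 7 of the 18 comparisons. Those were the day comparisons of ctrl and Cre + NFIA, upwards, where 5.64% and 5.78% of all genes did so, Cre + NFIA above Cre and Δpro#3 below Cre + NFIA at day 7 (2.13% and 4.6%), and the changes over time of Cre below ctrl, Cre + NFIA above Cre and Δpro#3 below Cre + NFIA (1.27%, 1.7% and 4.55%). E2f2 was the least expressed of the 49 at day 0, and its fold changes are understated by the pseudocount.

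Both E-type cyclins, which drive entry into S phase with Cdk2, split the cell types into the same pairs at day 7. Ccne1 (chr7:38883003-38892553, minus strand) stood at 33.4, 33.8 and 33.7 FPKM in ctrl, 23.2, 25.3 and 22.96 in Cre, 30.1, 33.02 and 33.01 in Cre + NFIA and 18.8, 20.9 and 23.6 in Δpro#3. Ccne2 (chr4:11118498-11131926, plus strand) stood at 13.1, 11.5 and 13.3 FPKM in ctrl, 8.36, 6.62 and 7.82 in Cre, 15.8, 16.7 and 13.8 in Cre + NFIA and 7.85, 6.62 and 8.35 in Δpro#3. For both genes every ctrl and Cre + NFIA library exceeded every Cre and Δpro#3 library. At day 0 Ccne1 ranged from 13.99 to 15.96 FPKM in ctrl and from 18.7 to 21.7 in Cre + NFIA, and Ccne2 from 3.68 to 6.92 over all 12 libraries. Ccne2 was lower in Cre than in ctrl at day 7 (log2 -0.67 ± 0.10, adjusted p = 0.000167, limma), higher in Cre + NFIA than in Cre (0.94 ± 0.10, adjusted p = 8.51e-06, limma) and lower in Δpro#3 than in Cre + NFIA (-0.93 ± 0.10, adjusted p = 5.97e-06, limma). Between the days Ccne1 rose in ctrl (1.11 ± 0.08, adjusted p = 3.68e-11, limma), Cre (0.31 ± 0.08, adjusted p = 0.0019, limma) and Cre + NFIA (0.65 ± 0.08, adjusted p = 1.5e-07, limma), and did not pass in Δpro#3 (0.01 ± 0.08, adjusted p = 0.969, limma). Ccne2 rose in ctrl (1.26 ± 0.14, adjusted p = 4.16e-08, limma), Cre (0.59 ± 0.14, adjusted p = 0.00099, limma) and Cre + NFIA (1.16 ± 0.14, adjusted p = 1.41e-07, limma), and did not pass in Δpro#3 (0.34 ± 0.14, adjusted p = 0.0513, limma). E2f1, the other activating E2F of the 49, split them the opposite way, with 24.8, 25.8 and 25.5 FPKM in ctrl, 30.6, 31.9 and 32.1 in Cre, 27.5, 28.04 and 26.3 in Cre + NFIA and 33.96, 34.1 and 33.7 in Δpro#3 at day 7, and was higher in Cre than in ctrl (log2 0.30 ± 0.04, adjusted p = 9.12e-05, limma).

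**Figure D4:**
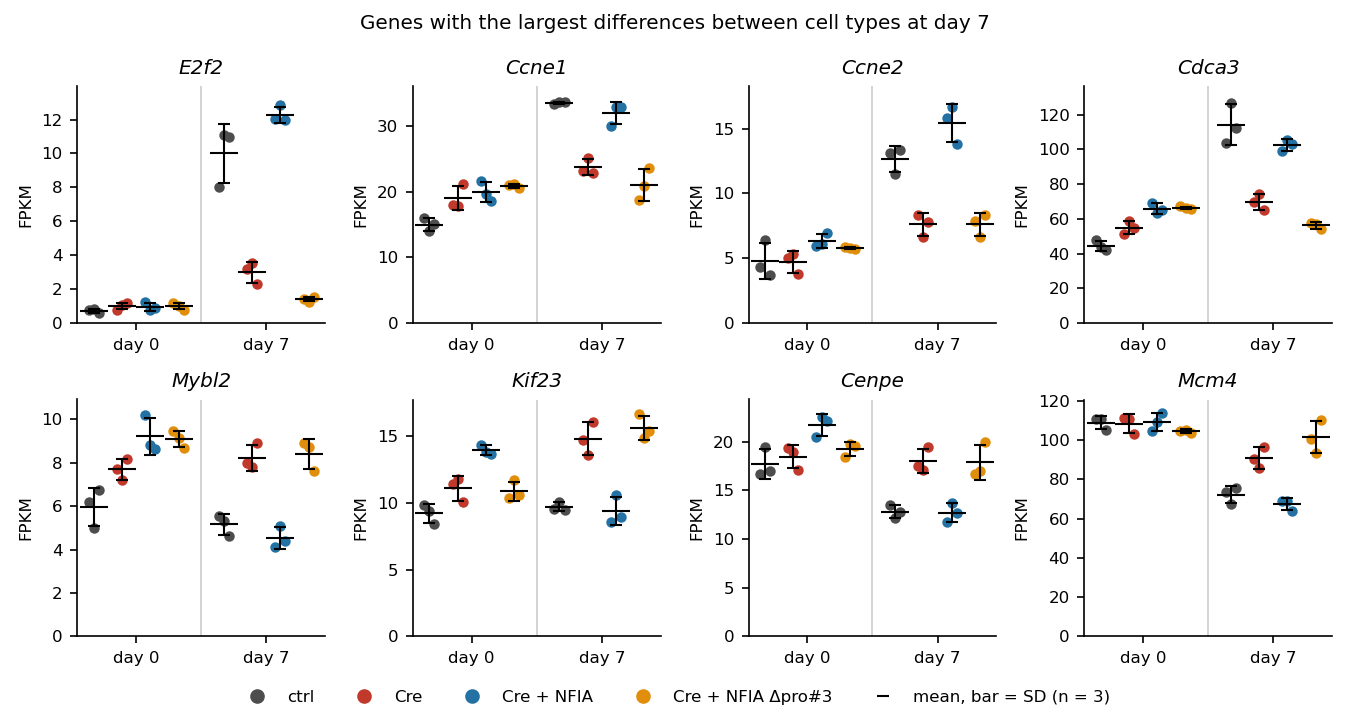
FPKM per library of E2f2, Ccne1, Ccne2, Cdca3, Mybl2, Kif23, Cenpe and Mcm4 at both days in the 4 cell types, with the mean of each group. At day 7 the first 4 genes are higher in ctrl and Cre + NFIA than in Cre and Δpro#3, and the last 4 are lower.

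Of the 10 licensing and fork genes, 6 encode the MCM helicase that unwinds DNA. Of these 6, 3 fell and 1 rose between the days in ctrl, and 4 fell in Cre, 5 in Cre + NFIA and 2 in Δpro#3, with no rise in these 3 (38.1%, 21.6%, 38.3% and 17.0% of all genes fell). Mcm6 and Mcm4 fell in ctrl under all 3 scalings, and the falls in the other cell types held there too. Mcm6 (chr1:130228168-130256233, minus strand) stood at 98.01, 102 and 99.9 FPKM in ctrl, 110.4, 104 and 96.3 in Cre, 98.2, 100.2 and 101 in Cre + NFIA and 98.8, 98.9 and 101 in Δpro#3 at day 0. Its day 7 values were 56.7, 58.8 and 58.99 FPKM in ctrl, 70.1, 69.4 and 74.7 in Cre, 66.1, 69.3 and 66.8 in Cre + NFIA and 81.2, 79.2 and 83.4 in Δpro#3, below every day 0 library in each cell type. On the log2 scale it fell in ctrl (-0.77 ± 0.05, adjusted p = 2.37e-12, limma), Cre (-0.53 ± 0.05, adjusted p = 3.5e-09, limma), Cre + NFIA (-0.56 ± 0.05, adjusted p = 4.01e-10, limma) and Δpro#3 (-0.29 ± 0.05, adjusted p = 2.19e-05, limma). After 7 days it was higher in Cre + NFIA than in ctrl (0.21 ± 0.05, adjusted p = 0.00788, limma) and in Δpro#3 than in Cre (0.19 ± 0.05, adjusted p = 0.0146, limma).

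Mcm4 (chr16:15623990-15637493, minus strand) ranged from 103 to 114 FPKM over the 12 libraries of day 0. By day 7 the libraries gave 73.7, 67.3 and 75.6 FPKM in ctrl, 90.2, 85.8 and 96.7 in Cre, 69.03, 69.01 and 63.7 in Cre + NFIA and 101, 93.6 and 110.3 in Δpro#3, so that Cre and Δpro#3 lay above ctrl and Cre + NFIA with no overlap. It fell between the days in ctrl (log2 -0.59 ± 0.06, adjusted p = 2e-08, limma), in Cre (-0.25 ± 0.06, adjusted p = 0.00143, limma) and in Cre + NFIA (-0.69 ± 0.06, adjusted p = 1.68e-09, limma), and was higher in Δpro#3 than in Cre + NFIA at day 7 (0.59 ± 0.07, adjusted p = 1.27e-05, limma). Against ctrl, 5 of the 6 MCM genes were higher in Cre at day 7 (36.1% of all genes), of which Mcm4 and Mcm6 were so under all 3 scalings. Mcm3 was higher in Δpro#3 than in Cre at day 7 (0.15 ± 0.05, adjusted p = 0.0423, limma). Mcm7 (chr5:138605811-138613650, minus strand) overlaps Mir106b, Mir25 and Mir93 on its strand, and ranged from 86.5 to 109 FPKM over all libraries.

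Pcna, the sliding clamp of DNA polymerases and the most expressed of the 49 (chr2:132074898-132079050, minus strand), was high with either transgene at day 0. It stood at 199, 196 and 187 FPKM in ctrl, 204, 200.3 and 169.7 in Cre, 233, 234 and 252 in Cre + NFIA and 233, 238 and 245 in Δpro#3. The day 7 libraries held 209.5, 208 and 219.7 FPKM in ctrl, 216, 219 and 227 in Cre, 264, 266 and 246 in Cre + NFIA and 256, 224 and 254 in Δpro#3. It rose against Cre at day 0 in Cre + NFIA (log2 0.33 ± 0.07, adjusted p = 0.00414, limma), and against ctrl at day 7 (0.28 ± 0.06, adjusted p = 0.00775, limma). Cdc6, which loads the helicase, fell between the days in Cre (-0.23 ± 0.07, adjusted p = 0.0109, limma), Cre + NFIA (-0.31 ± 0.07, adjusted p = 0.000837, limma) and Δpro#3 (-0.32 ± 0.07, adjusted p = 0.00136, limma). It was higher in Cre + NFIA than in ctrl at day 7 (0.22 ± 0.06, adjusted p = 0.0285, limma), a call lost in 7 of the alternative analyses, those that leave out a library included. Gmnn, the inhibitor of licensing, stood at 18.5, 19.2 and 19.6 FPKM in ctrl and 27.1, 28.6 and 24.7 in Cre at day 0 and was higher in Cre (0.47 ± 0.11, adjusted p = 0.0405, limma), and in Δpro#3 it fell between the days (-0.39 ± 0.10, adjusted p = 0.00457, limma).

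Among the genes of nucleotide synthesis, Rrm2, the small subunit of ribonucleotide reductase (chr12:25393106-25399011, plus strand), separated the cell types at day 0. It stood at 35.03, 32.95 and 32.03 FPKM in ctrl, 36.5, 42.2 and 37.5 in Cre, 76.5, 76.3 and 71.8 in Cre + NFIA and 56.2, 55.2 and 53.99 in Δpro#3, with Cre + NFIA highest, Δpro#3 next and both above every ctrl and Cre library. After differentiation the values were 90.6, 93.7 and 97.6 FPKM in ctrl, 83.8, 87.9 and 90.2 in Cre, 88.7, 90.3 and 92.2 in Cre + NFIA and 90.3, 83.8 and 82.9 in Δpro#3, where all 12 libraries lay between 82.9 and 97.6. It was higher in Cre + NFIA than in Cre at day 0 (log2 0.94 ± 0.06, adjusted p = 1.34e-06, limma), higher in Δpro#3 than in Cre (0.50 ± 0.06, adjusted p = 0.000247, limma) and lower in Δpro#3 than in Cre + NFIA (-0.43 ± 0.06, adjusted p = 0.000531, limma). Between the days it rose in ctrl (1.47 ± 0.05, adjusted p = 1.81e-15, limma), Cre (1.15 ± 0.05, adjusted p = 4.14e-13, limma), Cre + NFIA (0.27 ± 0.05, adjusted p = 0.000129, limma) and Δpro#3 (0.63 ± 0.05, adjusted p = 6.45e-09, limma). Tk1, thymidine kinase, which salvages thymidine, stood at 115, 114 and 115 FPKM in Δpro#3 at day 0, above all other groups, and at 84.6, 84.1 and 73.8 at day 7, and fell (-0.50 ± 0.07, adjusted p = 1.3e-05, limma).

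Ezh2, the methyltransferase of Polycomb complex 2, and Brca1, a homologous recombination factor, were the most expressed of the 3 genes of checkpoint, repair and chromatin. Ezh2 stood at 22.2 to 26.8 FPKM in ctrl at day 0 and at 27.3 to 31.4 at day 7, and rose there (log2 0.22 ± 0.08, adjusted p = 0.016, limma). Brca1 stood at 5.31 to 6.47 FPKM in Cre and at 7.28 to 7.96 in Cre + NFIA at day 0, and was higher in the latter (0.36 ± 0.10, adjusted p = 0.0262, limma). Chek1, the S-phase checkpoint kinase, fell between the days in ctrl (-0.36 ± 0.10, adjusted p = 0.00315, limma).

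All 6 mitotic cyclins and CDK1 genes rose in Cre + NFIA against Cre at day 0, 5 of them under all 3 scalings. In Δpro#3, 2 of 6 rose. The shares of all genes that rose were 14.7% in Cre + NFIA and 9.26% in Δpro#3. Ccnb1, cyclin B1, which activates Cdk1 at mitotic entry (chr13:101548605-101556525, minus strand), stood at 34.1, 35.3 and 28.8 FPKM in ctrl, 35.4, 35.6 and 32.9 in Cre, 50.96, 47.1 and 51.3 in Cre + NFIA and 39.2, 44.4 and 43.9 in Δpro#3 at day 0. At day 7 its 12 libraries ranged from 44.4 to 54.8 FPKM. It was higher in Cre + NFIA than in Cre at day 0 (log2 0.51 ± 0.08, adjusted p = 0.000637, limma), with no overlap of libraries. Between the days it rose in ctrl (0.65 ± 0.07, adjusted p = 3.04e-08, limma) and Cre (0.46 ± 0.07, adjusted p = 1.16e-05, limma), and did not pass in Cre + NFIA (0.11 ± 0.07, adjusted p = 0.162, limma) and Δpro#3 (0.13 ± 0.07, adjusted p = 0.147, limma). Cdk1, the kinase of mitotic entry (chr10:68799383-68815686, minus strand), stood at 72.1, 66.99 and 66.3 FPKM in ctrl, 82.7, 75.6 and 74.3 in Cre, 86.1, 85.6 and 86.04 in Cre + NFIA and 83.2, 84.00 and 80.7 in Δpro#3 at day 0 and rose in Cre + NFIA against Cre by 0.15 ± 0.05, adjusted p = 0.0376 (limma).

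Cdca3, a trigger of mitotic entry (chr6:124779565-124783719, plus strand), split at day 7 as the E-type cyclins did. It stood at 47.5, 43.5 and 42.2 FPKM in ctrl, 51.2, 58.9 and 54.8 in Cre, 69.2, 63.1 and 65.01 in Cre + NFIA and 67.2, 66.1 and 65.8 in Δpro#3 at day 0. At day 7 it stood at 104, 127 and 112 FPKM in ctrl, 69.5, 74.4 and 65.1 in Cre, 99.1, 106 and 103 in Cre + NFIA and 57.7, 57.2 and 53.98 in Δpro#3. Every ctrl and Cre + NFIA library of day 7 exceeded every other library of either day, and the Δpro#3 libraries lay below those of Cre. At day 7 it was lower in Cre than in ctrl (log2 -0.70 ± 0.07, adjusted p = 8.01e-06, limma), higher in Cre + NFIA than in Cre (0.55 ± 0.07, adjusted p = 3.51e-05, limma), and lower in Δpro#3 than in Cre (-0.30 ± 0.07, adjusted p = 0.0143, limma) and than in Cre + NFIA (-0.85 ± 0.07, adjusted p = 5.84e-07, limma). Between the days it rose in ctrl (1.34 ± 0.07, adjusted p = 2.64e-13, limma), Cre (0.34 ± 0.07, adjusted p = 0.00031, limma) and Cre + NFIA (0.63 ± 0.07, adjusted p = 4.2e-08, limma) and fell in Δpro#3 (-0.23 ± 0.07, adjusted p = 0.00888, limma). Cdc25c, the phosphatase that activates Cdk1, rose between the days in Δpro#3 (0.28 ± 0.10, adjusted p = 0.0266, limma), a call lost in 8 of the alternative analyses.

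Of the 5 mitotic kinase and checkpoint genes, 4 rose in Cre + NFIA and 3 in Δpro#3 against Cre at day 0. Shares of all genes that did so were 14.7% and 9.26%. Aurka, Aurora A of the spindle poles (chr2:172181690-172196035, minus strand), stood at 26.1, 22.3 and 19.5 FPKM in ctrl, 27.8, 27.8 and 26.7 in Cre, 37.6, 40.7 and 40.9 in Cre + NFIA and 33.1, 37.01 and 36.04 in Δpro#3. Plk1, Polo-like kinase 1, stood at 29.1, 22.2 and 25.99 FPKM in ctrl, 29.7, 33.9 and 31.4 in Cre, 45.8, 44.7 and 41.4 in Cre + NFIA and 38.8, 38.5 and 38.8 in Δpro#3. In both genes the Cre + NFIA and Δpro#3 libraries lay above all ctrl and Cre libraries. Aurka was higher in Cre + NFIA than in Cre (log2 0.52 ± 0.09, adjusted p = 0.00132, limma) and than in ctrl (0.80 ± 0.09, adjusted p = 7.06e-05, limma), and Plk1 than in Cre (0.46 ± 0.08, adjusted p = 0.00227, limma). Plk1 was lower in Cre + NFIA than in ctrl at day 7 (-0.29 ± 0.08, adjusted p = 0.0318, limma), a call lost in 5 of the alternative analyses.

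All 4 genes of mitotic exit and the chromosomal passengers rose with either transgene at day 0, under all 3 scalings against Cre. Among all genes tested 14.7% rose against Cre in Cre + NFIA and 9.26% in Δpro#3. Cdc20, the activator of the anaphase-promoting complex (chr4:118105506-118109957, minus strand), stood at 53.1, 46.3 and 54.6 FPKM in ctrl, 53.5, 53.5 and 60.5 in Cre, 96.7, 91.4 and 85.6 in Cre + NFIA and 77.1, 84.3 and 79.8 in Δpro#3. The Cre + NFIA libraries were the highest, those of Δpro#3 next, and neither overlapped Cre or ctrl. The log2 fold change against Cre was 0.70 ± 0.07, adjusted p = 5.41e-05 in Cre + NFIA and 0.52 ± 0.07, adjusted p = 0.000916 in Δpro#3 (limma). Between the days Cdc20 rose in ctrl (0.59 ± 0.08, adjusted p = 1.11e-06, limma) and Cre (0.44 ± 0.08, adjusted p = 0.000103, limma) and fell in Cre + NFIA (-0.39 ± 0.08, adjusted p = 0.000155, limma), and did not pass in Δpro#3 (0.02 ± 0.08, adjusted p = 0.837, limma).

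Ube2c, the ubiquitin-conjugating enzyme that works with that complex (chr2:164595398-164604322, plus strand), rose over time in 3 cell types. It stood at 56.97, 56.5 and 59.3 FPKM in ctrl, 59.9, 67.1 and 66.01 in Cre, 80.3, 83.4 and 83.8 in Cre + NFIA and 77.4, 82.2 and 83.5 in Δpro#3 at day 0. Its day 7 values were 114, 128 and 108 FPKM in ctrl, 94.4, 108 and 102 in Cre, 119, 116 and 118 in Cre + NFIA and 88.7, 87.2 and 77.98 in Δpro#3. Libraries of day 7 exceeded those of day 0 in ctrl, Cre and Cre + NFIA, and overlapped them in Δpro#3. Over time it rose in ctrl (1.00 ± 0.06, adjusted p = 1.04e-11, limma), Cre (0.65 ± 0.06, adjusted p = 3.38e-08, limma) and Cre + NFIA (0.51 ± 0.06, adjusted p = 3.97e-07, limma), and did not pass in Δpro#3 (0.06 ± 0.06, adjusted p = 0.479, limma). It was lower in Δpro#3 than in Cre at day 7 (-0.26 ± 0.07, adjusted p = 0.0307, limma), a call lost in 5 of the alternative analyses.

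Of the 6 spindle motor and microtubule genes, 5 rose in Cre + NFIA and 3 in Δpro#3 against Cre at day 0. Shares of all genes that rose there were 14.7% and 9.26%. In Cre + NFIA 5 of the 6 fell between the days, beside 38.3% of all genes. Kif23, a kinesin of the central spindle (chr9:61765087-61794606, minus strand), stood at 9.84, 9.37 and 8.43 FPKM in ctrl, 11.4, 11.8 and 10.01 in Cre, 14.3, 13.8 and 13.6 in Cre + NFIA and 10.4, 11.7 and 10.6 in Δpro#3 at day 0. By day 7 the libraries gave 9.53, 10.1 and 9.45 FPKM in ctrl, 14.7, 13.6 and 16.1 in Cre, 8.59, 10.5 and 8.95 in Cre + NFIA and 16.6, 14.8 and 15.3 in Δpro#3. The Cre and Δpro#3 libraries of day 7 were above all ctrl and Cre + NFIA libraries of that day, while at day 0 those of Cre + NFIA were the highest. At day 7 it was higher in Cre than in ctrl (log2 0.56 ± 0.08, adjusted p = 0.000103, limma), lower in Cre + NFIA than in Cre (-0.61 ± 0.08, adjusted p = 3.99e-05, limma) and higher in Δpro#3 than in Cre + NFIA (0.68 ± 0.08, adjusted p = 1.09e-05, limma), and at day 0 it was lower in Δpro#3 than in Cre + NFIA (-0.33 ± 0.08, adjusted p = 0.0172, limma).

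Kif20a, another kinesin of cytokinesis, stood at 28.7 to 31.8 FPKM in Cre and 37.6 to 40.4 in Δpro#3 at day 0 and was higher in Δpro#3 (0.36 ± 0.07, adjusted p = 0.00392, limma). Tpx2, which activates Aurora A on the spindle, stood at 32.9 to 35.96 FPKM in Cre and 43.3 to 45.3 in Cre + NFIA at day 0 (0.35 ± 0.04, adjusted p = 0.000189, limma). Kif2c, a microtubule depolymerase, was lower in Δpro#3 than in Cre + NFIA at day 0 (-0.18 ± 0.05, adjusted p = 0.0424, limma), a call lost in 13 of the alternative analyses.

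Of the 5 centromere and chromosome structure genes, 4 rose in Cre + NFIA and 3 in Δpro#3 against Cre at day 0. Among all genes tested 14.7% and 9.26% did so. Top2a, DNA topoisomerase II alpha, which overlaps a listed SNORA32 (chr11:98854257-98885503, minus strand), stood at 57.7, 60.6 and 52.6 FPKM in ctrl, 61.04, 58.9 and 57.3 in Cre, 74.4, 76.4 and 76.97 in Cre + NFIA and 65.8, 70.3 and 66.9 in Δpro#3 at day 0. In Cre + NFIA it fell to 57.9, 60.8 and 57.9 by day 7 (log2 -0.36 ± 0.06, adjusted p = 2.99e-05, limma). Cenpe, the kinetochore kinesin (chr3:134875527-134936504, plus strand), stood at 13.5, 12.2 and 12.8 FPKM in ctrl, 17.5, 17.1 and 19.4 in Cre, 11.7, 13.7 and 12.7 in Cre + NFIA and 16.7, 16.9 and 19.95 in Δpro#3 at day 7. As with Mcm4, the Cre and Δpro#3 libraries of Cenpe exceeded all of ctrl and Cre + NFIA, while at day 0 the 12 libraries ranged from 16.6 to 22.6 FPKM. Over time Cenpe fell in ctrl (-0.43 ± 0.08, adjusted p = 3.58e-05, limma) and Cre + NFIA (-0.73 ± 0.08, adjusted p = 2.95e-08, limma), and did not pass in Cre (-0.03 ± 0.08, adjusted p = 0.756, limma) and Δpro#3 (-0.11 ± 0.08, adjusted p = 0.284, limma). At day 7 Cenpe was higher in Cre than in ctrl (0.46 ± 0.08, adjusted p = 0.00039, limma) and lower in Cre + NFIA than in Cre (-0.47 ± 0.08, adjusted p = 0.000264, limma). Cenpa, the histone of centromeres, stood at 35.03 to 39.7 FPKM in ctrl at day 0 and 51.8 to 59.7 at day 7 (0.56 ± 0.08, adjusted p = 1.5e-06, limma). Mki67 rose at day 0 in Cre + NFIA against Cre (0.40 ± 0.08, adjusted p = 0.00255, limma), and at day 7 its 12 libraries ranged from 28.8 to 37.2 FPKM.

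Mybl2 and Foxm1, the transcription factors of the mitotic programme, were higher in Cre and Δpro#3 than in the other two at day 7. Mybl2 (chr2:162880423-162910424, plus strand) stood at 6.18, 5.01 and 6.73 FPKM in ctrl, 7.74, 7.20 and 8.18 in Cre, 10.2, 8.84 and 8.62 in Cre + NFIA and 9.45, 9.12 and 8.69 in Δpro#3 at day 0. The day 7 libraries held 5.57, 5.33 and 4.61 FPKM in ctrl, 7.996, 7.79 and 8.90 in Cre, 4.12, 5.09 and 4.40 in Cre + NFIA and 8.91, 8.71 and 7.62 in Δpro#3. All Cre and Δpro#3 libraries of day 7 were above all of ctrl and Cre + NFIA. It was higher in Cre than in ctrl at day 7 (log2 0.58 ± 0.09, adjusted p = 0.000184, limma), lower in Cre + NFIA than in Cre (-0.74 ± 0.09, adjusted p = 2.15e-05, limma) and higher in Δpro#3 than in Cre + NFIA (0.77 ± 0.09, adjusted p = 1.13e-05, limma), and over time fell in Cre + NFIA (-0.88 ± 0.10, adjusted p = 4.04e-08, limma), and did not pass in ctrl (-0.17 ± 0.10, adjusted p = 0.111, limma), Cre (0.08 ± 0.10, adjusted p = 0.48, limma) and Δpro#3 (-0.10 ± 0.10, adjusted p = 0.423, limma). Foxm1, which overlaps 4933413G19Rik on its strand, stood at 23.82, 22.5 and 22.7 FPKM in ctrl, 26.8, 26.5 and 28.1 in Cre, 21.7, 21.1 and 21.3 in Cre + NFIA and 27.5, 26.7 and 26.5 in Δpro#3 at day 7 and was higher in Cre than in ctrl by 0.23 ± 0.04, adjusted p = 0.000803 (limma). At day 0 neither gene passed in Cre + NFIA against Cre, with Mybl2 at 0.23 ± 0.10, adjusted p = 0.106 and Foxm1 at 0.05 ± 0.07, adjusted p = 0.663 (limma).

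Another 92 genes of the cell cycle, held in 5 lists, gave the setting, and all of them were tested. Of 35 other mitotic genes, 23 rose in Cre + NFIA and 11 in Δpro#3 against Cre at day 0 with none lower, where 14.7% and 9.26% of all genes rose, and 24 fell and 3 rose between the days in Cre + NFIA (38.3% and 31.8% of all genes). Of 30 genes of origin recognition, helicase activation and the polymerases, 2 rose and 1 fell in Cre + NFIA against Cre at day 0 (14.7% and 12.9% of all genes). At day 7, 11 of these 30 were higher and 3 lower in Cre + NFIA than in Cre (27.0% and 35.9% of all genes), and 8 were higher and 15 lower in Δpro#3 than in Cre + NFIA (40.4% and 28.9%). Between the days 32.9% of all genes rose and 38.1% fell in ctrl, 30.0% and 21.6% in Cre, 31.8% and 38.3% in Cre + NFIA and 24.5% and 17.0% in Δpro#3. Of the 30, 10 rose and 8 fell in ctrl and 9 and 12 in Cre + NFIA, shares near or below those, while 4 and 11 did so in Cre and 1 and 17 in Δpro#3. Of 14 pocket protein, other E2F and DREAM genes, 5 rose and 6 fell in ctrl, 4 and 1 in Cre, 3 and 5 in Cre + NFIA and 3 and 0 in Δpro#3, which gives no more than a description of a short list. Of the 7 CDK inhibitors, 4 rose and 3 fell in ctrl and in Cre + NFIA, 2 rose and 3 fell in Cre, and 2 rose and 1 fell in Δpro#3, again few genes beside those shares.

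Cdkn2c, the CDK4 and CDK6 inhibitor p18, which is known to rise in adipogenesis, had one of the 2 largest rises of these genes in ctrl and in Cre + NFIA. It stood at 24.4 to 27.3 FPKM in ctrl at day 0 and over 24.4 to 33.7 in all 12 libraries of that day. After differentiation the values were 81.98, 97.4 and 82.9 FPKM in ctrl, 47.4, 59.2 and 47.4 in Cre, 91.1, 97.9 and 91.1 in Cre + NFIA and 33.7, 38.1 and 41.3 in Δpro#3. The ctrl and Cre + NFIA libraries exceeded all of Cre, and those all of Δpro#3. Between the days it rose in ctrl (log2 1.70 ± 0.09, adjusted p = 3.73e-13, limma), Cre (0.74 ± 0.09, adjusted p = 4.99e-07, limma) and Cre + NFIA (1.51 ± 0.09, adjusted p = 2.6e-12, limma), and in Δpro#3 the difference was 0.18 ± 0.09, adjusted p = 0.114 (limma). Cdkn2b, the inhibitor p15, had the reverse order at day 7, with 45.5, 43.3 and 37.9 FPKM in ctrl, 61.4, 66.6 and 65.7 in Cre, 35.5, 34.7 and 36.6 in Cre + NFIA and 84.3, 93.6 and 83.8 in Δpro#3, and over time fell in ctrl (-1.09 ± 0.11, adjusted p = 7.9e-09, limma), Cre (-0.41 ± 0.11, adjusted p = 0.00243, limma) and Cre + NFIA (-1.39 ± 0.11, adjusted p = 1.72e-10, limma), and did not pass in Δpro#3 (-0.16 ± 0.11, adjusted p = 0.232, limma).

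Cdkn1a, the p53-induced inhibitor p21, rose between the days in all 4 cell types. It stood at 147, 147 and 132 FPKM in ctrl, 165, 198 and 194 in Cre, 209, 207 and 191 in Cre + NFIA and 209.5, 205 and 208 in Δpro#3 at day 0. At day 7 it stood at 247, 254 and 238 FPKM in ctrl, 277, 299.7 and 261 in Cre, 337, 317 and 335 in Cre + NFIA and 277, 317 and 284 in Δpro#3, with no overlap of the days in any cell type. The log2 fold change was 0.79 ± 0.07, adjusted p = 1.64e-09 in ctrl and 0.49 ± 0.07, adjusted p = 7.36e-06 in Δpro#3 (limma). Cdkn2a, the p16 and p19Arf locus, stood at 350.2 to 589 FPKM over the day 0 libraries and 217 to 421 over those of day 7, and fell in ctrl (-0.76 ± 0.11, adjusted p = 4.1e-06, limma), Cre (-0.47 ± 0.11, adjusted p = 0.0016, limma), Cre + NFIA (-0.90 ± 0.11, adjusted p = 3.81e-07, limma) and Δpro#3 (-0.53 ± 0.11, adjusted p = 0.000634, limma). Cdkn1b, p27, stood at 20.1 to 25.3 FPKM in ctrl at day 0 and 11.4 to 14.97 at day 7, and fell (-0.76 ± 0.11, adjusted p = 1.9e-06, limma).

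Among G1 regulators, Ccnd1, cyclin D1, separated Cre + NFIA from the other cell types at day 0. It stood at 5.26, 6.37 and 5.21 FPKM in ctrl, 3.47, 4.12 and 4.02 in Cre, 19.9, 19.6 and 18.4 in Cre + NFIA and 4.84, 4.14 and 4.56 in Δpro#3. The Cre + NFIA libraries lay far above the other 9, and those of Δpro#3 just above Cre. Its day 7 values were 11.8, 10.4 and 9.43 FPKM in ctrl, 18.5, 18.3 and 19.5 in Cre, 11.4, 13.7 and 12.7 in Cre + NFIA and 22.01, 21.02 and 16.03 in Δpro#3. It was higher in Cre + NFIA than in Cre at day 0 (log2 2.06 ± 0.09, adjusted p = 1.14e-07, limma), and between the days it rose in ctrl (0.80 ± 0.10, adjusted p = 5.59e-07, limma), Cre (2.02 ± 0.10, adjusted p = 1.98e-12, limma) and Δpro#3 (1.90 ± 0.10, adjusted p = 7.62e-12, limma) and fell in Cre + NFIA (-0.58 ± 0.10, adjusted p = 4.25e-05, limma). Ccnd2, cyclin D2, rose in Δpro#3 by 1.12 ± 0.06, adjusted p = 1.62e-11 (limma), and Cdk6, its kinase, fell in Cre + NFIA (-0.94 ± 0.10, adjusted p = 2.01e-08, limma).

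Rb1, the retinoblastoma protein, was, like E2f2, highest in ctrl and Cre + NFIA at day 7. It stood at 3.28, 4.83 and 3.27 FPKM in ctrl, 3.04, 3.36 and 2.71 in Cre, 3.53, 4.58 and 4.56 in Cre + NFIA and 3.05, 3.06 and 3.74 in Δpro#3 at day 0. By day 7 the libraries gave 11.7, 9.06 and 10.4 FPKM in ctrl, 7.41, 7.28 and 5.99 in Cre, 12.1, 12.5 and 11.7 in Cre + NFIA and 4.56, 4.95 and 7.02 in Δpro#3. The ctrl and Cre + NFIA libraries of day 7 were above all others. From day 0 it rose in ctrl (1.26 ± 0.14, adjusted p = 5.9e-08, limma), Cre (0.97 ± 0.14, adjusted p = 6.06e-06, limma), Cre + NFIA (1.33 ± 0.14, adjusted p = 2.47e-08, limma) and Δpro#3 (0.59 ± 0.14, adjusted p = 0.00176, limma). Rbl2, the pocket protein p130, stood at 14.6 to 16.5 FPKM in ctrl at day 0 and 6.98 to 9.44 at day 7 and fell there (-0.86 ± 0.09, adjusted p = 2.16e-08, limma). Pttg1, the securin that guards sister chromatids, fell in Cre (-0.59 ± 0.09, adjusted p = 1.58e-05, limma) and Δpro#3 (-0.62 ± 0.09, adjusted p = 1.45e-05, limma), Orc1, a subunit of the origin recognition complex, fell in Cre (-0.75 ± 0.10, adjusted p = 4.35e-06, limma), and Cdc7, the kinase that fires origins, fell in Δpro#3 (-0.61 ± 0.08, adjusted p = 1.26e-06, limma).

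**Figure D5:**
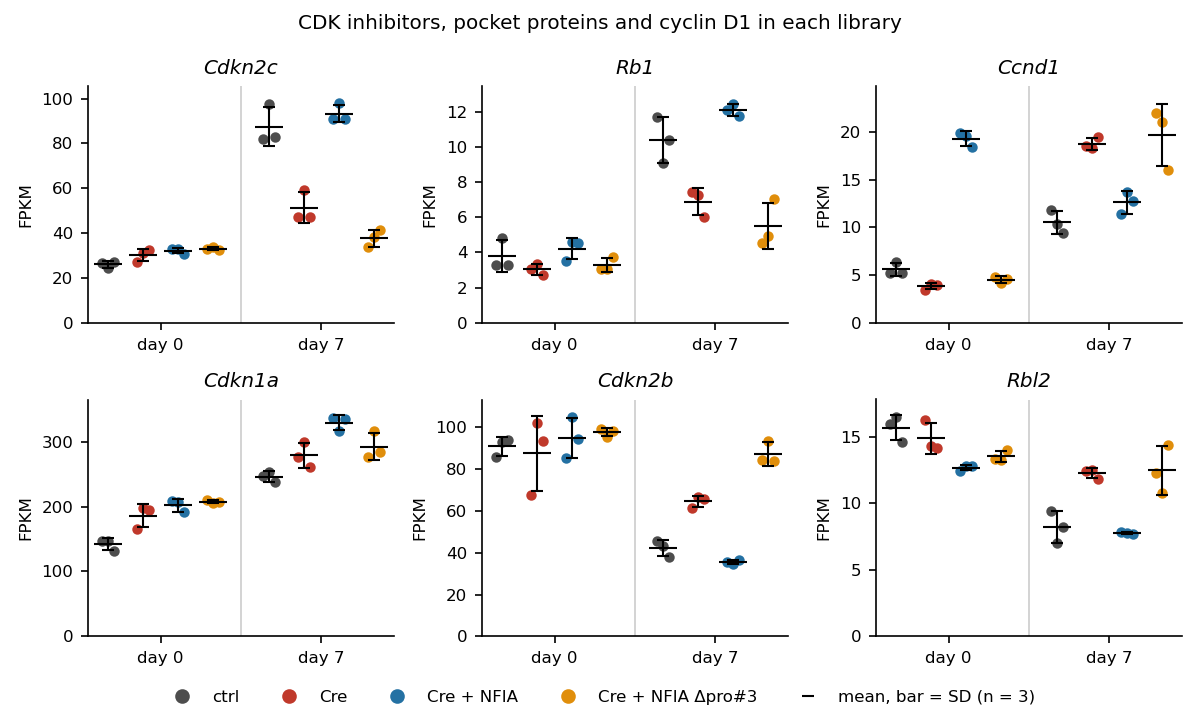
FPKM per library of Cdkn2c, Rb1, Ccnd1, Cdkn1a, Cdkn2b and Rbl2 at both days in the 4 cell types, with the mean of each group. Cdkn2c and Rb1 are highest in ctrl and Cre + NFIA at day 7, Cdkn2b and Rbl2 are lowest there, and Ccnd1 is high in Cre + NFIA alone at day 0.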

How the data were processed

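RNA-seq was measured in 24 libraries of 4 cell types at day 0 and day 7, with 3 libraries per group as the labels number them. Libraries were made from polyA RNA with strand kept. The authors aligned reads to mm9 with STAR 2.5.3a, kept unique alignments, counted those on the strand of each gene and deposited FPKM values for 24825 genes, with gene lengths. The annotation is not given in the sources used here. Division by the total lets a change in a few abundant genes move all others, so 2 other scalings were tried.

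The 49 genes and the lists beside them were chosen with earlier results of these data known. From the FPKM values, log2(FPKM + 1) was tested over the 12640 genes that reached 1 FPKM in 3 or more libraries. The test was limma 3.58.1 (R 4.3.3) with the variance allowed to follow mean expression. For a comparison of cell types on one day the fit held 12 libraries, and for one that spans the days all 24. A gene passed, and is said to have risen, fallen or been higher or lower, at a Benjamini-Hochberg adjusted p under 0.05 over all genes tested. Errors of log2 fold changes are SE. As FPKM is per length, levels of different genes can be set side by side. FPKM times length came out as whole reads, within a tolerance of 0.1 read, for 100% of values in every library, which gave the totals of 7.73 to 14.6 M reads (M, 1000000). Reads are not independent molecules, so floors cover counting error only.

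Genes named in each library were the 2 with the highest mean FPKM in each of 10 roles plus Mki67, Top2a, Pcna, Ccnb1 and Ccne1, and in each comparison the 3 largest rises and 3 largest falls that passed. Of the 92 further genes, Ccnd1, Cdkn1a, Cdkn1b and Cdkn2a were named, and the 2 largest rises and falls in each comparison of days. Positions are of the mm9 annotation (NCBIM37) and promoters of GRCm38.p6, as RefSeq gives them, with 40 of 49 symbols matched. The test was checked on simulated data with changes of 3-fold only. That check does not cover smaller changes, as most of those reported here are. Alternatives were other pseudocounts, filters, scalings, sets of libraries, a replicate block, depth thinned to one level, limma-voom on recovered reads and each library left out.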

Additional observations from a re-analysis of the deposited data

Results flagged for a closer look

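Each result here is a difference between 2 cell types in their change from day 0 to day 7, tested as an interaction in limma over all 24 libraries. The change differed for 25 of the 49 genes between Cre and ctrl, for 33 between Cre + NFIA and Cre, for 14 between Cre + NFIA Δpro#3 and Cre, and for 30 between Δpro#3 and Cre + NFIA. Among all genes tested it was higher for 29.7%, 18.8%, 7.79% and 35.0%, in the same order. It was lower for 19.5%, 30.1%, 10.4% and 24.3%. When higher and lower are added, the first and the last of the counts lie near the shares of all genes. Their split by direction differed from that of all genes for the values as deposited. Between Cre and ctrl the change was higher for 6 of the 49 genes and lower for 19. Between Δpro#3 and Cre + NFIA it was higher for 22 and lower for 8. These splits moved with the scaling. Comparisons that share a cell type share its libraries.

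Between Cre and ctrl, the change of Cenpe was higher in Cre by 0.40 ± 0.11, adjusted p = 0.00427, that of Chek1 by 0.37 ± 0.14, adjusted p = 0.035 and that of Mcm4 by 0.34 ± 0.09, adjusted p = 0.00273 on the log2 scale (limma). The change of E2f2 was lower in Cre, at -1.67 ± 0.18, adjusted p = 3.81e-07, as were those of Cdca3 at -1.01 ± 0.10, adjusted p = 9.68e-08 and Ccne1 at -0.80 ± 0.11, adjusted p = 4.71e-06 (limma). The call for Chek1 was lost in 10 of the alternative analyses.

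Between Cre + NFIA and Cre, the change was higher in Cre + NFIA for E2f2 by 1.77 ± 0.18, adjusted p = 9.74e-08, Ccne2 by 0.57 ± 0.19, adjusted p = 0.0182 and Ccne1 by 0.34 ± 0.11, adjusted p = 0.0123 (limma). It was lower for Mybl2, at -0.97 ± 0.13, adjusted p = 4.98e-06, Kif23, at -0.92 ± 0.11, adjusted p = 9.97e-07, and Rrm2, at -0.89 ± 0.08, adjusted p = 8.26e-09 (limma). Ccne2 did not pass without Cre day 0 library 2 or Cre day 7 library 2.

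With Δpro#3 against Cre, the change of Mcm6 was higher by 0.24 ± 0.06, adjusted p = 0.0117, and those of E2f2, Ube2c and Cdca3 were lower, at -0.72 ± 0.18, adjusted p = 0.0082, -0.59 ± 0.09, adjusted p = 0.000167 and -0.57 ± 0.10, adjusted p = 0.000359 (limma). With Δpro#3 against Cre + NFIA, the changes of Kif23, Mybl2 and Mcm4 were higher by 1.01 ± 0.11, adjusted p = 1.21e-07, 0.78 ± 0.13, adjusted p = 3.82e-05 and 0.64 ± 0.09, adjusted p = 1.45e-06 (limma). Those of E2f2, Cdca3 and Ccne2 were lower, at -2.49 ± 0.18, adjusted p = 3.44e-10, -0.87 ± 0.10, adjusted p = 1.37e-07 and -0.83 ± 0.19, adjusted p = 0.000912 (limma). The adipocyte marker sums given in the report differ between the same cell types at day 7, and their part in these differences was not tested.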

How the results depend on the processing

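The counts of genes that passed, out of 49, did not turn to the other leading direction in any alternative but those that follow. They also stayed within 1.5 times of the reported count but for these. Counts with as many higher as lower have no leading direction and were not taken as turned. For Cre against ctrl at day 0 the reported 3 became 0 with no filter, 0 with only the groups compared, 1 without the trend, 5 by limma-voom and 12 with all 24 libraries. For Δpro#3 against Cre at day 0 the 20 became 13 with no filter. For Δpro#3 against Cre + NFIA at day 0 the 3 became 8 with only the groups compared and 5 with all 24 libraries. For Δpro#3 against Cre at day 7 the 5 became 2 with only the groups compared, and with no filter 3 were higher and 2 lower, which turned the leading direction. For Cre + NFIA against ctrl at day 7 the 5 became 3 with no filter, 3 under quantile normalisation and 3 with thinned reads. Median-of-ratios factors turned the direction in Cre against ctrl at day 7 (27, of which 20 lower), in Δpro#3 against Cre + NFIA at day 7 (30, of which 19 lower) and in their change over time (24, of which 13 lower), by shifting all genes. Cre + NFIA against Cre at day 7 had no leading direction as reported, with 11 higher and 11 lower. Its split was 18 and 7 under median-of-ratios factors but 8 and 17 under quantile normalisation. Quantile normalisation gave 3 and 3 for Δpro#3 against Cre at day 7.

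Leaving out each library gave counts of 32 to 38, 22 to 28, 31 to 34 and 10 to 17 for the days in ctrl, Cre, Cre + NFIA and Δpro#3, where 10 was without Δpro#3 day 7 library 3. At day 0 they were 0 to 5 for Cre against ctrl, 23 to 27 for Cre + NFIA against Cre, 12 to 18 for Δpro#3 against Cre, 1 to 2 for Δpro#3 against Cre + NFIA and 37 to 41 for Cre + NFIA against ctrl. In the same order at day 7 they were 18 to 22, 20 to 22, 1 to 6, 23 to 28 and 2 to 5. For Δpro#3 against Cre at day 7 the 5 became 3 without Cre library 1, 1 without library 2, and 3 higher and 2 lower without library 3. For Cre + NFIA against ctrl at day 7 they became 2 without Cre + NFIA library 2, 3 without ctrl library 2 or 3 or Cre + NFIA library 1 or 3, and 2 higher and 3 lower without ctrl library 1. For the changes over time they were 19 to 24, 30 to 33, 11 to 14 and 28 to 32. No named gene turned direction. Of the calls for named genes, 953 were kept and 45 lost over the other alternatives, and 604 were kept and 56 lost over the left-out libraries.

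Same-numbered libraries did not deviate together. The mean correlations of their deviations ran from -0.16 to 0.06, and in 0 of 14 comparisons was every library closest to its own number, so that the numbers were not taken as pairs. A replicate block left 1 of 3 genes in Cre against ctrl at day 0 and moved no other count by over 1.5 times.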
